A study of Cricetulus griseus with 16 samples.

Results

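Zfp36, Zfp36l1, Zfp36l2, Tob1, Tob2 and Btg1 encode factors that mark messenger RNAs for removal of the poly(A) tail and for decay. Their transcripts were followed in CHO cells, a Chinese hamster ovary line (ATCC CCL-61), kept at 37 °C or heated. The genes were taken by name from the table of read counts, and all 6 of the 6 names were found among 20824 listed genes. Each name matched 1 row, and each gene passed the filter on low counts in all 6 comparisons made. The groups were cultures left at 37 °C without treatment, cultures at 40 °C for 1 h, cultures at 40 °C for 6 h, and cultures at 42.5 °C for 1 h. There were 4 cultures a group, described as biological repeats and lettered A to D. No added gene and no treatment other than heat is described for these cultures, whose medium held serum and penicillin/streptomycin. The study asked how a mild, fever-like heat and a stronger one make cells tolerant of later stress. It measured proteins, survival and lipids as well, and used RNA sequencing to find genes and pathways that answer each dose. The study left out 1 control library without naming it in its text. Control replicate D was taken to be that library and kept out of the tests, so the control group held 3 libraries.

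ZFP36 (tristetraprolin) and its relatives ZFP36L1 and ZFP36L2 are zinc finger proteins that bind AU-rich elements in the 3′ untranslated region of short-lived transcripts, such as those of cytokines and immediate early genes. They bring the CCR4-NOT deadenylase complex to the bound transcript. TOB1, TOB2 and BTG1 belong to the BTG/TOB family of antiproliferative proteins, whose shared domain binds the catalytic deadenylase subunits CNOT7 and CNOT8. TOB proteins also bind the cytoplasmic poly(A)-binding protein. The mRNAs of several of these factors are themselves short-lived and are induced quickly by stress or growth factors in many cell types.

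The libraries held between 10504192 and 14668365 counted reads. Levels are given as CPM, the read count scaled to a common library size, after TMM scaling, a correction for differences in library composition. The median total was 10980907.5 reads at 42.5 °C and 13281003 in the control libraries used, and the part of depth in the results was not tested. In bulk RNA, fewer cells with a transcript and less of that transcript per cell cannot be told apart. The mesenchymal markers Vim, Sparc, Fn1 and Cd44 were found in every library used, at no less than 240 CPM. Ptprc, Cd3e, Cdh5 and Epcam, markers of blood, endothelial and epithelial cells, had at most 1 read in any library used. Pecam1 had between 0 and 4 reads, and the epithelial marker Cdh1 between 22 and 48. Control replicate D differed by 1.5-fold or more from the average of its group in 17.8% of genes. The same measure was between 1.41% and 2.33% in the other 15 libraries, with the highest value in replicate D of 42.5 °C.

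Only Zfp36l1 and Tob2 passed both the adjusted p and the fold threshold in any comparison, and they did so in different ones. Zfp36l1 was higher in each heated group than at 37 °C and rose past the fold threshold at 42.5 °C. Tob2 was highest after 1 h at 40 °C and lowest after 1 h at 42.5 °C, and passed both only between heated groups, not against 37 °C. Btg1 was higher in the hotter group by less than 1.5-fold, Zfp36l2 was lowest after 6 h at 40 °C, and Zfp36 and Tob1 did not reach an adjusted p under 0.05 in any of the 6 comparisons.

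**Figure D1:**
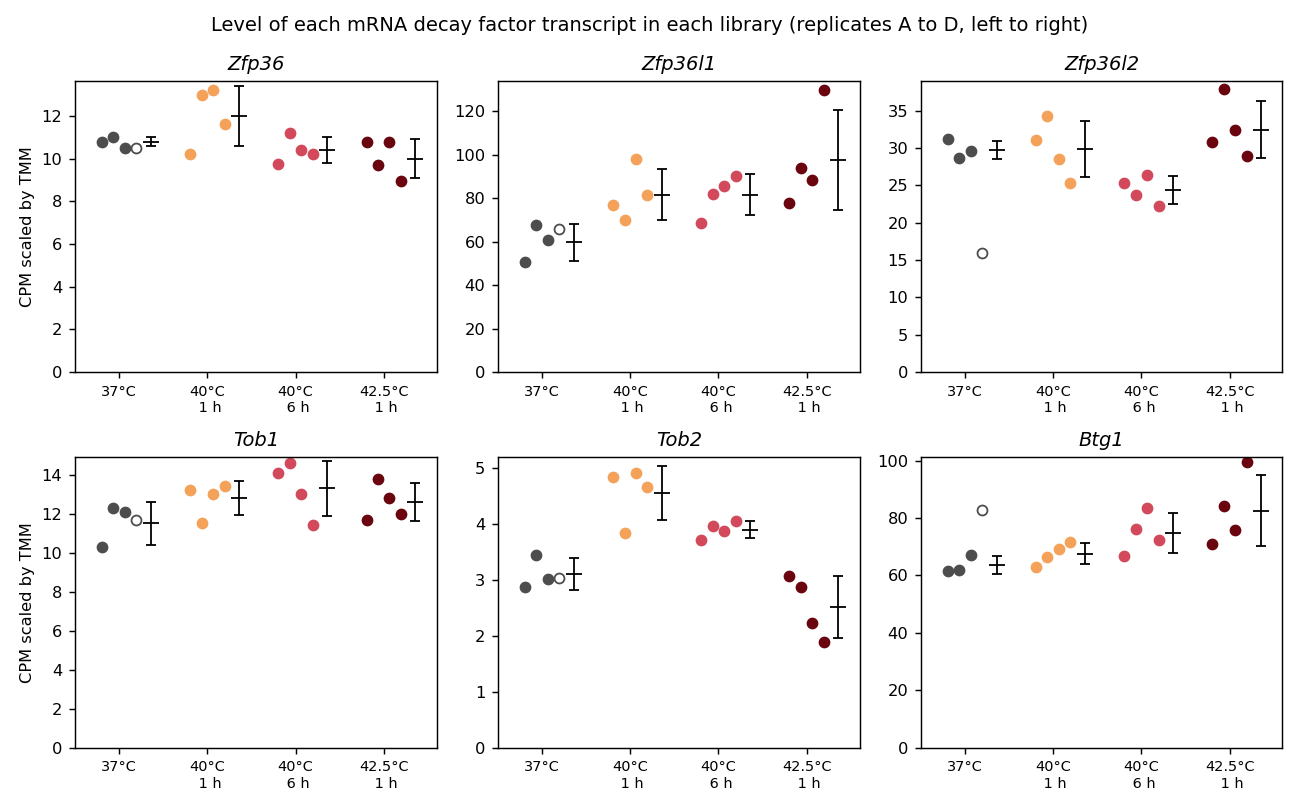
Level of each transcript (CPM scaled by TMM, linear axes from 0, a different range in each panel) in each library, with replicates A to D from left to right and the mean ± SD of each group as a black bar. The open circle is control replicate D, which enters neither the mean nor the tests. The Zfp36l1 points of every heated group lie above the 3 filled control points, and the 4 Tob2 points at 42.5 °C lie below all points at 40 °C.

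A gene was called only when its adjusted p was under 0.05 over all genes tested and its fold change was at least 1.5. By this rule 0 of the 6 genes were called after 1 h at 40 °C against 37 °C, where 0.334% of all tested genes were called. The edgeR test gave 2 of the 6 an unadjusted p under 0.05, and DESeq2 called 0. After 6 h at 40 °C, 0 of the 6 were called by edgeR against 37 °C, beside 3.11% of all genes, with 3 at an unadjusted p under 0.05 and 0 called by DESeq2. After 1 h at 42.5 °C, 1 of the 6 was called, beside 7.51% of all genes. Without the fold threshold, the genes that passed were 1, 3 and 2 of the 6 in the same order, beside 1.64%, 29.4% and 43.1% of all genes. The share of all genes at an unadjusted p under 0.05 was not counted, so such counts, here and below, have no background beside them. After 6 h at 40 °C, Tob2 had an unadjusted edgeR p of 0.0587 against 37 °C and ranked 4469 of 10499 genes by p. These 3 comparisons share the control libraries.

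Among the heated groups, 1 of the 6 was called between 42.5 °C and 40 °C for 1 h, beside 5.27% of all genes. Between 6 h and 1 h at 40 °C, 0 of the 6 were called by edgeR, beside 1.28% of all genes, with 2 at an unadjusted p under 0.05 and 0 called by DESeq2. Between 42.5 °C and 40 °C for 6 h, 1 of the 6 was called, beside 8.25% of all genes. Adjusted p alone was passed by 2, 1 and 2 of the 6, beside 36.1%, 18.5% and 47% of all genes. With so few members, these shares describe the 6 genes and were not tested against the background.

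Groups whose libraries did not overlap were counted as well. Against 37 °C they were found for 2 of the 6 genes after 1 h at 40 °C, for 3 after 6 h and for 2 at 42.5 °C, beside 13.4%, 36.2% and 45.9% of all genes. Among heated groups they were found for 1 of the 6 between 42.5 °C and 40 °C for 1 h, for 0 between 6 h and 1 h at 40 °C, and for 2 between 42.5 °C and 40 °C for 6 h, beside 34.1%, 21.3% and 41.8% of all genes. The median log2 fold change of the 6 genes against 37 °C was 0.15 after 1 h at 40 °C, 0.22 after 6 h and 0.11 at 42.5 °C. The median over all genes tested was 0.00036, 0.0012 and -0.0017 in the same order.

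**Figure D2:**
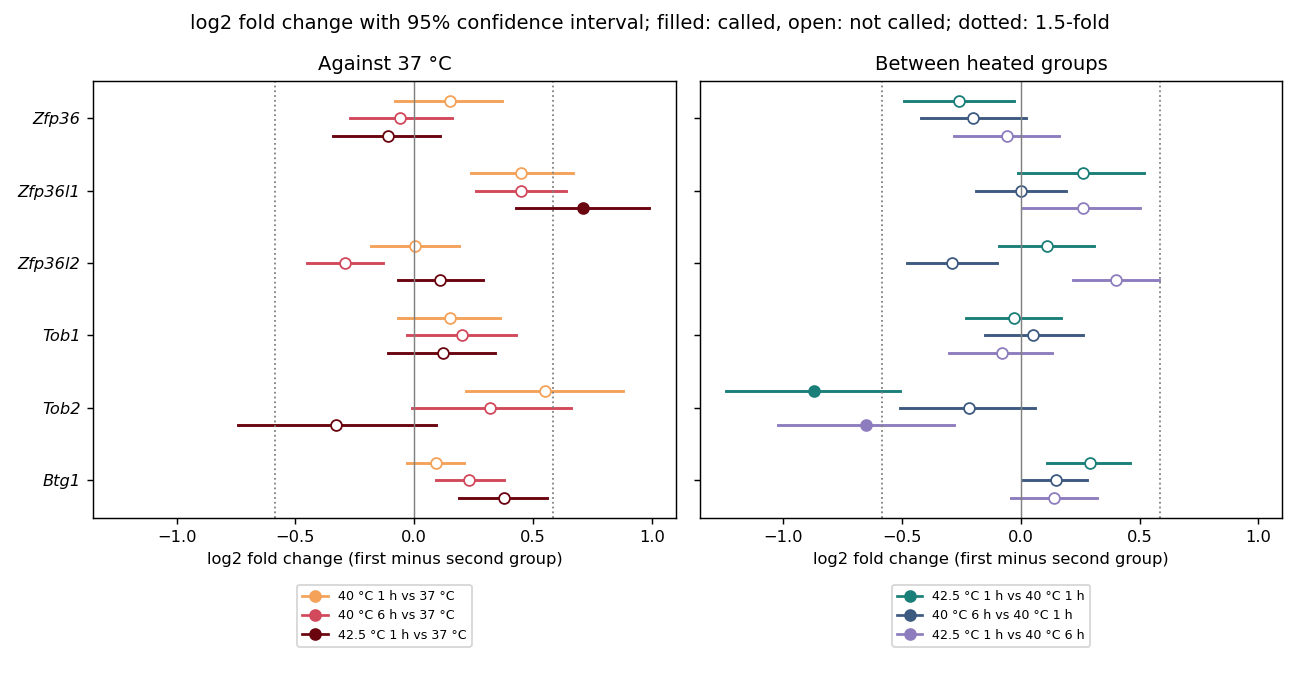
Log2 fold change of each gene with its 95% confidence interval, against 37 °C on the left and between heated groups on the right, with positive values higher in the first group named. Filled points are called and dotted lines mark a fold change of 1.5. The 3 filled points are Zfp36l1 at 42.5 °C against 37 °C (0.71) and Tob2 at 42.5 °C against both 40 °C groups (-0.87 and -0.65).

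Among the AU-rich element binding genes, Zfp36l1 (ENSCGRG00001010926) changed most. In the control libraries its level was 50.8 CPM in replicate A, 67.6 in B and 60.6 in C. After 1 h at 40 °C it was 77.1, 70.2, 97.9 and 81.6 CPM in replicates A to D, and after 6 h it was 68.4, 82.1, 85.6 and 90.3 CPM. At 42.5 °C it was 77.6, 94.1, 88.6 and 130 CPM. All 12 heated libraries lay above the 3 control libraries used, and replicate D of 42.5 °C was the highest of all. Control replicate D, at 65.9 CPM, lay within the range of the other controls.

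The group means of Zfp36l1 were 59.7 CPM ± 8.39 (SD, n = 3) at 37 °C, 81.7 ± 11.8 (n = 4) after 1 h at 40 °C, 81.6 ± 9.43 (n = 4) after 6 h and 97.6 ± 22.8 (n = 4) at 42.5 °C. The rise at 42.5 °C was 1.64-fold, or 0.71 on the log2 scale (SE 0.13, 95% interval 0.43 to 0.99, adjusted p = 0.000566). Zfp36l1 was called in 14 of 17 alternative settings with adjusted p from 1.69e-10 to 1. The setting of adjusted p alone reuses the main fit without the fold threshold, so it could not end this call or those of Tob2 given below. The 3 settings that ended the call were a test against a fold of 1.5, a block by replicate letter, and leaving out replicate D of 42.5 °C. The block gives that library no part in the difference, because no control of its letter was used, so it is not a check separate from leaving the library out. Both 40 °C groups gave 1.37-fold higher levels, under the fold threshold. Their log2 fold changes were 0.45 (SE 0.10, adjusted p = 0.0346) after 1 h and 0.45 (SE 0.09, adjusted p = 0.00148) after 6 h. With single libraries left out, the adjusted p after 1 h at 40 °C ran from 0.00866 to 0.151. With all 4 control libraries, the value after 1 h at 40 °C was 0.42 (adjusted p = 0.376), and the value at 42.5 °C was 0.68 (adjusted p = 0.0142).

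The height of the rise at 42.5 °C rested in part on replicate D of that group. Without this library the log2 fold change of Zfp36l1 was 0.54 (adjusted p = 4.57e-05), which passed the adjusted p but not the fold change of 1.5. The order of the heated groups was not settled. The 42.5 °C mean was 1.2-fold that of 40 °C for 1 h (log2 0.26, 95% interval -0.01 to 0.52, adjusted p = 0.117) and 1.19-fold that of 40 °C for 6 h (log2 0.26, 95% interval 0.01 to 0.50, adjusted p = 0.0797). Without replicate D of 42.5 °C these differences were 0.09 and 0.08, and over the settings their adjusted p ran from 0.0274 to 1 and from 0.00574 to 1. The 2 groups at 40 °C differed by 0.0021 on the log2 scale (95% interval -0.19 to 0.19, adjusted p = 0.99), and the sign of that difference turned in 8 of 17 settings.

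Zfp36l2 (ENSCGRG00001023281) was lower after the long mild heat. Its level was 31.2, 28.7 and 29.6 CPM in the control libraries A to C. It was 31.1, 34.3, 28.6 and 25.3 CPM in replicates A to D after 1 h at 40 °C, and 25.4, 23.7, 26.4 and 22.3 CPM after 6 h. At 42.5 °C it was 30.8, 37.9, 32.4 and 29 CPM. All 4 libraries at 40 °C for 6 h lay below all 3 control libraries used and below all 4 libraries at 42.5 °C, while the other groups overlapped.

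The mean of Zfp36l2 after 6 h at 40 °C was 24.4 CPM ± 1.83 (SD, n = 4), against 29.8 ± 1.22 (n = 3) at 37 °C, 29.9 ± 3.8 (n = 4) after 1 h at 40 °C and 32.5 ± 3.83 (n = 4) at 42.5 °C. It was 1.23-fold lower than at 37 °C (log2 -0.29, SE 0.08, adjusted p = 0.00833) and 1.22-fold lower than after 1 h (log2 -0.29, SE 0.09, adjusted p = 0.0315). The 42.5 °C group was 1.32-fold higher than 40 °C for 6 h (log2 0.40, SE 0.09, adjusted p = 0.00103). None of the 3 differences reached a fold of 1.5. The difference between 6 h and 1 h had an adjusted p from 0.0079 to 0.111 with single libraries left out, and missed the threshold without replicate A (0.0813) or B (0.111) of 1 h and without replicate B (0.0776) or D (0.0854) of 6 h. The difference from 37 °C depended on the control that was left out. Zfp36l2 was 15.9 CPM in control replicate D, and with that library included the log2 fold change after 6 h was -0.12 (adjusted p = 0.71).

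Zfp36 itself (ENSCGRG00001007290), the founding member of the family and an immediate early gene in many cells, stayed between 8.93 and 13.2 CPM in the 15 libraries. The controls A to C had 10.8, 11 and 10.5 CPM. After 1 h at 40 °C the libraries had 10.2, 13, 13.2 and 11.6 CPM, after 6 h 9.73, 11.2, 10.4 and 10.2 CPM, and at 42.5 °C 10.8, 9.69, 10.8 and 8.93 CPM. Every heated group overlapped the controls. The log2 fold changes against 37 °C were 0.15 (95% interval -0.08 to 0.37) after 1 h at 40 °C, -0.06 (-0.27 to 0.16) after 6 h and -0.11 (-0.34 to 0.11) at 42.5 °C, with adjusted p of 0.575, 0.718 and 0.398. All 3 intervals lie within a fold change of 1.5 either way. The difference between the 1 h groups, -0.26 on the log2 scale for 42.5 °C against 40 °C (SE 0.11), had an unadjusted p of 0.0313 and an adjusted p of 0.076. Its adjusted p was 0.0499 in a fit of all groups, 0.0374 with library totals alone and 0.0305 without replicate A of 40 °C for 1 h, in a range of 0.0305 to 1. In the RefSeq annotation of another hamster assembly (CriGri-PICRH-1.0) the span of Zfp36 overlaps that of LOC113837220. Reads of overlapping genes cannot be told apart where strand was not used in counting, which the sources used here do not state.

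Of the TOB genes, Tob2 (ENSCGRG00001010039) gave the clearest contrast between the heat doses. It was the least read of the 6 genes, with 23 to 71 reads a library. The controls A to C had 2.88, 3.44 and 3.02 CPM, and control replicate D had 3.03. After 1 h at 40 °C the libraries A to D had 4.84, 3.85, 4.91 and 4.66 CPM, and after 6 h they had 3.72, 3.97, 3.87 and 4.06 CPM. At 42.5 °C they had 3.08, 2.87, 2.23 and 1.9 CPM. All 8 libraries at 40 °C thus lay above all controls and above all libraries at 42.5 °C, and the 42.5 °C libraries overlapped the controls.

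The means of Tob2 were 3.11 CPM ± 0.287 (SD, n = 3) at 37 °C, 4.56 ± 0.489 (n = 4) after 1 h at 40 °C, 3.9 ± 0.148 (n = 4) after 6 h and 2.52 ± 0.548 (n = 4) at 42.5 °C. After 1 h, Tob2 was 1.83-fold lower at 42.5 °C than at 40 °C (log2 -0.87, SE 0.17, 95% interval -1.24 to -0.51, adjusted p = 0.00108), in 4 of 4 libraries. This difference was called in 16 of 17 alternative settings, with adjusted p from 0.000179 to 0.604. Tob2 was also 1.57-fold lower at 42.5 °C than after 6 h at 40 °C (log2 -0.65, SE 0.17, 95% interval -1.02 to -0.28, adjusted p = 0.00554). That call held in 15 of 17 settings with adjusted p from 0.00238 to 1. Without replicate D of 42.5 °C the value was -0.52 (adjusted p = 0.0265), under the fold threshold.

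Against 37 °C, no difference of Tob2 was called. The log2 fold change was 0.55 after 1 h at 40 °C (1.46-fold, SE 0.15, 95% interval 0.22 to 0.88, adjusted p = 0.096), with the 4 heated libraries above the 3 controls. Without replicate B of that group it was 0.62, and Tob2 was then called (adjusted p = 0.0484). Its adjusted p ran from 0.0484 to 1 across the settings. After 6 h the log2 fold change was 0.32 (95% interval -0.01 to 0.66, adjusted p = 0.138), and at 42.5 °C it was -0.33 (-0.74 to 0.09, adjusted p = 0.193). The 2 groups at 40 °C were not told apart (log2 -0.22 for 6 h against 1 h, 95% interval -0.51 to 0.06, adjusted p = 0.272). The intervals against 37 °C at all 3 doses reach past a fold change of 1.5.

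Tob1 (ENSCGRG00001009633), the closest relative of Tob2, did not show the contrast. Its level was 10.3, 12.3 and 12.1 CPM in controls A to C. It was 13.2, 11.5, 13 and 13.4 CPM after 1 h at 40 °C, 14.1, 14.6, 13 and 11.4 CPM after 6 h, and 11.7, 13.8, 12.8 and 12 CPM at 42.5 °C. All heated groups overlapped the controls, with means from 12.6 to 13.3 CPM against 11.5 ± 1.11 (SD, n = 3). The log2 fold changes against 37 °C were 0.15 (95% interval -0.07 to 0.36), 0.20 (-0.03 to 0.43) and 0.12 (-0.11 to 0.34), with adjusted p of 0.534, 0.187 and 0.389. Between 42.5 °C and 40 °C for 1 h, where Tob2 gave -0.87, Tob1 gave -0.03 (95% interval -0.23 to 0.17, adjusted p = 0.826). The 2 intervals do not overlap, and the difference between the genes was not tested.

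Btg1 (ENSCGRG00001017332) was somewhat higher after the stronger heat. The controls A to C had 61.4, 62 and 67.3 CPM. After 1 h at 40 °C the libraries had 63.1, 66.5, 69.1 and 71.8 CPM, after 6 h 66.8, 76.1, 83.5 and 72.3 CPM, and at 42.5 °C 71.1, 84.1, 75.9 and 99.4 CPM. All 4 libraries at 42.5 °C lay above the 3 controls used, while both 40 °C groups overlapped them. Control replicate D had 82.7 CPM, higher than 2 of the libraries at 42.5 °C.

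The means of Btg1 were 63.6 CPM ± 3.26 (SD, n = 3) at 37 °C, 67.6 ± 3.7 (n = 4) after 1 h at 40 °C, 74.7 ± 7.04 (n = 4) after 6 h and 82.6 ± 12.4 (n = 4) at 42.5 °C. The difference at 42.5 °C was 1.3-fold (log2 0.38, SE 0.09, adjusted p = 0.0028), and after 6 h at 40 °C it was 1.17-fold (log2 0.23, SE 0.07, adjusted p = 0.017). Both passed the adjusted p and neither reached a fold of 1.5. With single libraries left out, the adjusted p after 6 h ran from 0.00308 to 0.0735. With all 4 controls they were 0.28 (adjusted p = 0.136) and 0.13 (adjusted p = 0.477). Btg1 was also 1.22-fold higher at 42.5 °C than after 1 h at 40 °C (log2 0.29, SE 0.08, adjusted p = 0.0121), and 0.19 (adjusted p = 0.0278) without replicate D of 42.5 °C. The 6 h group lay between its neighbours without differing from either past the threshold, at 0.15 against 40 °C for 1 h (adjusted p = 0.129), while 42.5 °C gave 0.14 against it (adjusted p = 0.188). After 1 h at 40 °C against 37 °C the log2 fold change was 0.09 (95% interval -0.03 to 0.21, adjusted p = 0.493). In the RefSeq annotation of CriGri-PICRH-1.0 the span of Btg1 overlaps that of Lin54.

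The spread within groups was compared by setting each library against the mean of the others in its group. Replicate D of 42.5 °C departed from its group in several of the 6 genes at once. In it Zfp36l1 was higher by 0.59 and Btg1 by 0.37 on the log2 scale, and Tob2 differed by -0.48, Zfp36 by -0.22 and Zfp36l2 by -0.21. Each of these differences has the sign of the mean difference between 42.5 °C and 40 °C for 1 h except that of Zfp36l2. Replicate D is itself part of the 42.5 °C mean, so this likeness of sign is partly built in. Control replicate D differed from controls A to C mainly in Zfp36l2 (-0.90) and Btg1 (0.38), while its differences in Zfp36, Tob1 and Tob2 were between -0.04 and 0.03. Replicate D had the lowest Zfp36l2 level in all 4 groups, a pattern seen after the values were known and not tested.

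**Figure D3:**
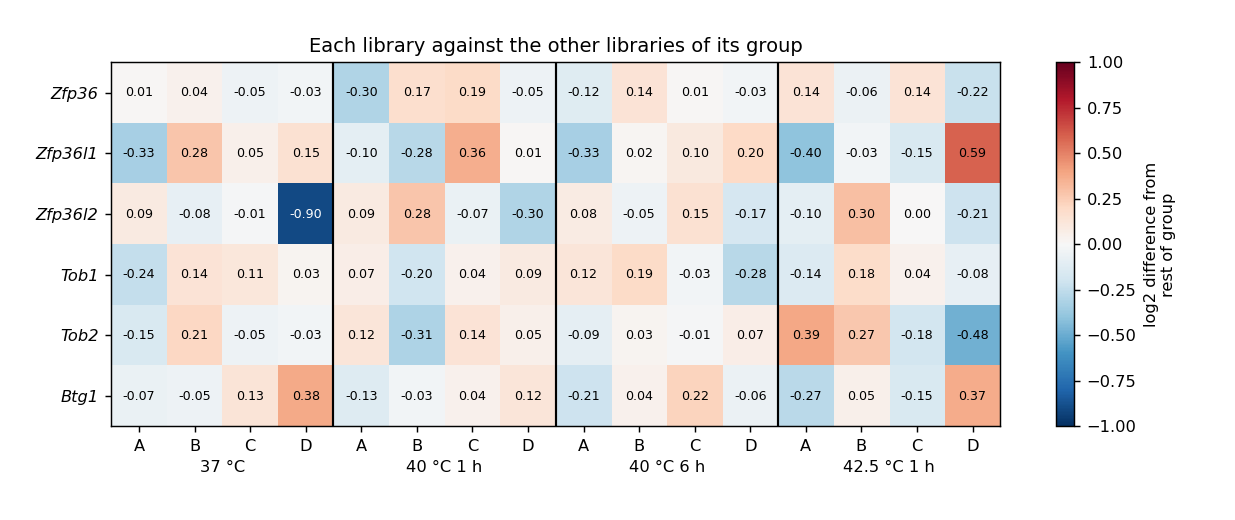
Log2 difference of each library (columns, replicates A to D in each group) from the mean of the other libraries of its group, for each gene (rows). Blue is lower and red is higher, on a scale from -1 to 1, and control replicate D is set against replicates A to C. The strongest values are Zfp36l2 in control replicate D (-0.90) and Zfp36l1 in replicate D of 42.5 °C (0.59).

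Other BTG genes were measured beside them. Btg2 (ENSCGRG00001018732), an antiproliferative gene that p53 and growth factors induce early, was called at 42.5 °C. This was 1 of 2 genes tested, beside 7.51% of all genes, and Btg2 had only 18 to 76 reads in the libraries used. Its level was 2.81, 2.71 and 3.54 CPM in controls A to C and 3.98, 5.14, 6.9 and 6.01 CPM at 42.5 °C, with no overlap. This is a log2 difference of 0.87 from 37 °C (SE 0.19, adjusted p = 0.00194), and against 40 °C for 1 h and for 6 h it was 0.97 (adjusted p = 0.000501) and 1.43 (adjusted p = 4.17e-05). Btg3 was higher at 42.5 °C by less than 1.5-fold, with 34.9 to 40.7 CPM against 27.1 to 30.5 in the controls used. Btg4 had between 0 and 4 reads in any library and was not tested, and no row bears the name Zfp36l3.

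The machinery that these factors recruit was counted against the shares over all genes given above (0.334%, 3.11% and 7.51%). Those shares are of called genes and do not apply to counts at an unadjusted p under 0.05. Of 16 tested genes for deadenylation (CCR4-NOT, PAN2-PAN3, PARN, Noct and Pabpc4), 1 was called at 42.5 °C, or 6.25%, which is close to the share over all genes. It was Cnot4, the ubiquitin ligase of the CCR4-NOT complex, at 43.7 CPM against 28 (log2 0.63, SE 0.06, adjusted p = 9.27e-07). The deadenylases Cnot7 and Cnot8, to which TOB and BTG proteins bind, were each higher by 0.25 on the log2 scale at 42.5 °C (adjusted p = 0.00116 and 0.00209), under the fold threshold. Of the 16 genes, 5 higher and 3 lower ones passed adjusted p alone there, beside 43.1% of all genes. In both 40 °C groups edgeR and DESeq2 called 0 of the 16, with 3 and 4 at an unadjusted p under 0.05. The median log2 fold change of the 16 was between 0.03 and 0.05 in the 3 comparisons with 37 °C.

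In the later steps of decay, edgeR and DESeq2 called 0 of 15 genes for decapping and 5′ to 3′ decay in each comparison with 37 °C. With 0.334%, 3.11% and 7.51% of all genes called, a count of 0 in lists of this size does not set them apart. An unadjusted p under 0.05 was found for 4 of them after 1 h at 40 °C, for 5 after 6 h and for 4 at 42.5 °C. Ddx6, a helicase of the decapping machinery, was lower at 42.5 °C than after 6 h at 40 °C, at 115 CPM against 181 (log2 -0.66, SE 0.07, adjusted p = 8.98e-07). It was the 1 gene of the 15 called there, or 6.67% beside 8.25% of all genes. Against 37 °C, at 162 CPM, Ddx6 was lower at 42.5 °C by less than 1.5-fold (log2 -0.49, SE 0.06, adjusted p = 1.30e-05). Of 15 genes of the exosome and its SKI helper, 0 were called by edgeR or DESeq2 against 37 °C, with 4, 4 and 7 at an unadjusted p under 0.05. Of 10 tested genes for p38, MK2 and MK3, 14-3-3 proteins and PP2A, which set the phosphorylation of ZFP36, 0 were called by either tool against 37 °C, with 3, 6 and 5 at an unadjusted p under 0.05.

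Other proteins that bind the 3′ untranslated region were counted as well. Of 15 such genes, 3 were called at 42.5 °C, all higher, or 20% beside 7.51% of all genes. Cpeb4, which controls poly(A) tail length, rose from 10.9 to 23.9 CPM (log2 1.13, SE 0.10, adjusted p = 7.52e-07) and Cpeb2 from 21.1 to 38.8 CPM (log2 0.87, SE 0.09, adjusted p = 3.28e-06). Zc3h12a, which encodes the endonuclease Regnase-1, rose from 8.37 to 15.5 CPM (log2 0.89, SE 0.13, adjusted p = 8.51e-05). At 40 °C edgeR and DESeq2 called 0 of the 15 after 1 h and after 6 h, with 3 and 10 at an unadjusted p under 0.05. The median log2 fold change of the 15 at 42.5 °C was 0.06, and no difference from other lists was tested. The list was chosen with earlier results of these data known, so its share is a description only.

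Transcripts known to carry AU-rich elements were called in both directions. Of 21 tested, 1 was called after 1 h at 40 °C. It was Dusp1, a phosphatase that switches off p38, at 67.9 CPM against 44.6 (log2 0.60, SE 0.12, adjusted p = 0.02). With all 4 controls and with DESeq2 0 were called there. After 6 h at 40 °C 4 of 20 were called, all lower, and they encode secreted cytokines. Ccl7 fell by 1.56 on the log2 scale (adjusted p = 2.08e-05), Ccl2 fell by 1.47 (adjusted p = 5.52e-06), Lif fell by 0.68 (adjusted p = 2.23e-06) and Cxcl1 fell by 0.64 (adjusted p = 0.000921).

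At 42.5 °C 6 of 21 were called, 5 higher and 1 lower. Fos had the largest log2 fold change (4.95, adjusted p = 1.91e-10), followed by Cxcl1 (-2.88, adjusted p = 1.38e-08), Dusp1 (2.29, adjusted p = 1.49e-08) and Ptgs2 (1.09, adjusted p = 6.64e-05). Fos had only 5 to 11 reads a library at 37 °C, against 162 to 265 at 42.5 °C. It thus passed the filter on low counts there through the 42.5 °C libraries. Cxcl1 had only 9 to 24 reads a library at 42.5 °C. Ccl2 and Ccl7, called lower after 6 h at 40 °C, gave -0.04 (adjusted p = 0.655) and -0.12 (adjusted p = 0.534) at 42.5 °C. The share called in this list was 4.76%, 20% and 28.6% at the 3 doses, beside 0.334%, 3.11% and 7.51% of all genes, with medians of 0.06, -0.23 and -0.04. The list was chosen with earlier results of these data known, so a share above the background is no separate evidence about such transcripts. The difference from the background was not tested. No transcript half-life was measured, so synthesis and decay are not separated in any of these levels.

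**Figure D4:**
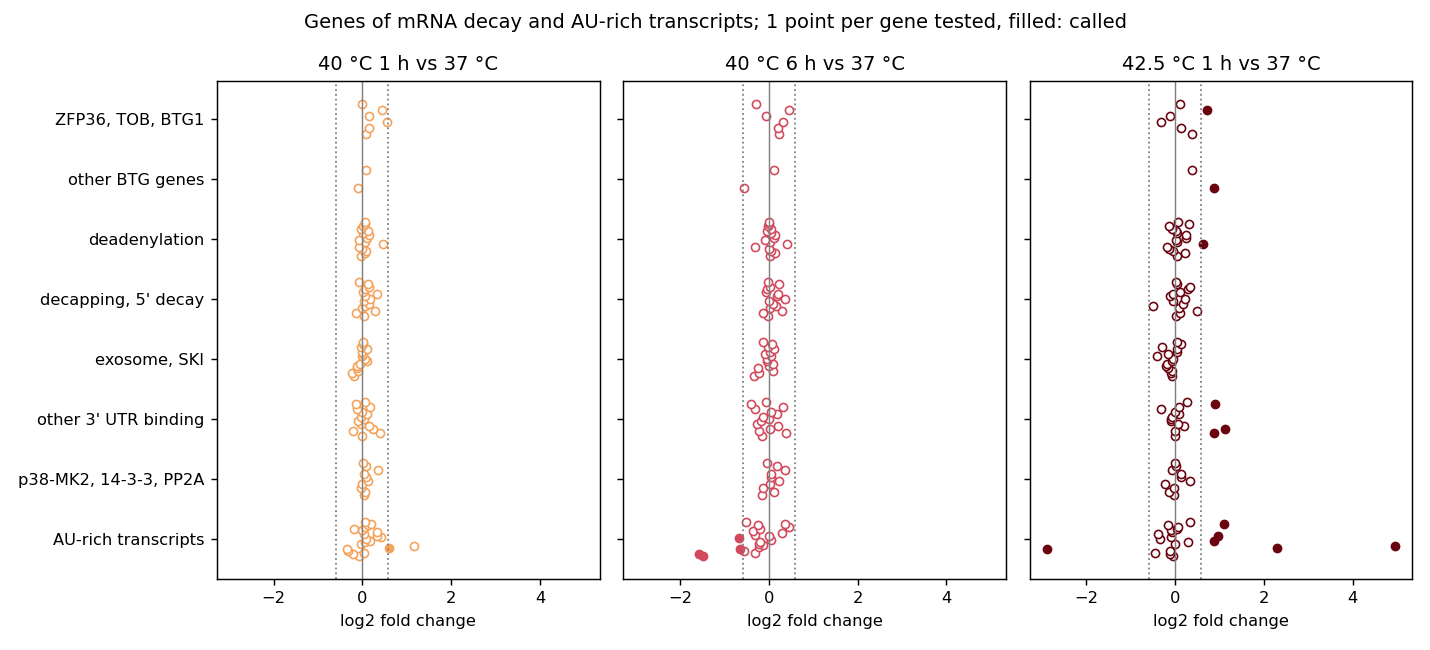
Log2 fold change against 37 °C of every tested gene of each list (rows), with 1 panel for each heated group. Filled points are called and dotted lines mark a fold change of 1.5. The decay machinery lies between the dotted lines at 40 °C, with Cnot4 filled at 42.5 °C, and the AU-rich transcripts spread from -2.88 (Cxcl1) to 4.95 (Fos) at 42.5 °C.

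The named genes whose levels followed each of the 6 most closely were found by Pearson's correlation of log2 CPM over the 15 libraries, among 9362 named genes. The libraries share the 4 heat groups and their depth, so the values are a description. Zfp36l1 was followed most closely by Klf3 (r = 0.92), a transcriptional repressor, and by Zbtb11 (0.92) and Rpf1 (0.91), and with control replicate D added the value of Rpf1 was 0.47. Zfp36l2 was followed by Slc2a13 (0.89) and Herc1 (0.88), and Zfp36 by Erf (0.83), a repressor of the ETS family, by Pcgf6 (0.76) and by Klhl21 (0.75). After the group means were taken off, the correlations of these 8 pairs were between 0.57 and 0.89.

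For the TOB and BTG genes the closest was Mcm6 with Btg1 (r = 0.95, and 0.91 within groups). Mcm6 is a subunit of the replicative helicase. Cog3 (0.93) and Helq (0.92) came next to it, and with control replicate D added the value of Cog3 was 0.69. Tob2 was followed by Ing5 (0.94), Plagl2 (0.91) and Arglu1 (0.90), and within groups these were 0.80, 0.43 and 0.39, so that for Plagl2 and Arglu1 much of the likeness lay in the difference between groups. Tob1 had weaker partners, with Ppcdc (0.81), Zfp74 (0.73) and Tmed6 (0.72), and the value of Ppcdc was 0.41 with control replicate D added.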

How the data were processed

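RNA of 16 CHO cultures was sequenced by the authors with paired reads on an Illumina NextSeq after TruSeq RNA library preparation, and the submitters' processing notes name bcl2fastq. Trimming, mapping to the genome CHOK1GS_HDv1 and counting were done by the authors in CLC Genomics Workbench. They deposited raw read counts per gene, whole numbers without normalization. The annotation release, the strand setting and the treatment of reads with several mapping places are not given in the sources used here.

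Groups were compared pairwise with the quasi-likelihood test of edgeR 4.0.16 (R 4.3.3) on all genes, with TMM and filterByExpr at its defaults. P values were adjusted by Benjamini-Hochberg over all genes tested, and the thresholds (0.05 and 1.5-fold) follow the study. Adjusted p values named without another tool come from this test. It was tested on simulated data with the same spread for every gene and changes larger than those of the genes followed here. That trial does not cover the spread seen within these groups. Levels are CPM scaled by TMM over 15 libraries, and those of control replicate D over all 16. The deposited totals put 3 counts at 0.205 to 0.286 CPM, a limit that covers counting error only. DESeq2 1.42.0 was an alternative, and the other alternatives were other filters and size factors, library totals alone (chosen after seeing the data), all 4 controls, a joint fit of all groups, a replicate block by letter, glmTreat and each library left out. Control replicate D was taken as the excluded sample because its counts, alone among the 16, differ from those the study tabulated.

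The 6 genes, the lists and the tests were chosen with earlier results of these data known. Named genes are the 6, the 3 genes most correlated with each, and the called members of each list, or up to 4 with the largest change. Cnot7, Cnot8, Btg3, Btg4, and Ccl2 and Ccl7 at 42.5 °C were named beyond that rule. A result for 1 marker and 1 correlated gene is not reported here. Of the listed genes, 4423 carry an identifier only, and Pabpc1, Lsm3, Lsm7, Mapkapk5, Ywhaq, Ppp2ca, Ppp2r1a, Csf2, Cxcl2, Itgam and Zfp36l3 matched no name. RefSeq genes of CriGri-PICRH-1.0 served to find neighbours by symbol, and 5 of the 6 genes matched. Lengths were not used, so levels are not compared between genes.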

Additional observations from a re-analysis of the deposited data

Results flagged for a closer look

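The responses of some of these genes differed between heated groups by a direct edgeR test of the groups. Tob2 was lower at 42.5 °C than at 40 °C for 1 h by a log2 fold change of -0.87 (adjusted p = 0.00108) and than at 40 °C for 6 h by -0.65 (adjusted p = 0.00554). Btg1 was higher at 42.5 °C than at 40 °C for 1 h by 0.29 (adjusted p = 0.0121). Zfp36l2 was lower after 6 h than after 1 h at 40 °C by -0.29 (adjusted p = 0.0315, and 0.0079 to 0.111 with single libraries left out), and higher at 42.5 °C than after 6 h at 40 °C by 0.40 (adjusted p = 0.00103). The comparison of 42.5 °C for 1 h with 40 °C for 6 h differs in both temperature and time, which cannot be told apart there. By Dixon's criterion at 95%, which sets a library's gap to its nearest neighbour against the range of its group, 0 of 18 sets of 4 libraries (6 genes in 3 heated groups) held an outlier. Replicate D of 42.5 °C, which moved calls of Zfp36l1 and Tob2, did not meet it. With only 4 values a set, the criterion is met only by a library very far from the others. Its result therefore does not clear replicate D, and the control libraries were not among the sets examined.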

How the results depend on the processing

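Of 612 values of the members' fold changes under alternatives, 582 kept their direction and their side of the call. Most of them belong to differences not called in the main fit, where staying uncalled is scored as kept, so the total says little about the calls. The number of the 6 genes called changed as follows, and the cause was not tested. With adjusted p alone it was 1, 3 and 2 against 37 °C (1 h and 6 h at 40 °C, then 42.5 °C) instead of 0, 0 and 1, and 2, 1 and 2 among heated groups instead of 1, 0 and 1. With glmTreat at a fold change of 1.5 it was 0 in all 3 comparisons with 42.5 °C that otherwise gave 1. Leaving out 1 library at a time gave 0 to 1 for 1 h at 40 °C against 37 °C, for 42.5 °C against 37 °C and for 42.5 °C against 40 °C for 6 h. The first gained Tob2, called without replicate B of 40 °C for 1 h, and the others lost their call without replicate D of 42.5 °C.

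With the replicate block, Zfp36l1 at 42.5 °C against 37 °C gave 0.54 and was no longer called, so 0 of the 6 were called there, and the replicate block changed no other call of the 6 genes. Replicate D at 42.5 °C has no control of its letter in this fit and so adds nothing to the difference. Leaving that library out gave 0.54 as well. The letters were not taken as pairs, because libraries of the same letter correlated between -0.05 and 0.17 after subtraction of group means. In 1 h at 40 °C against 37 °C all 3 correlated best with their own letter.

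Signs turned only for differences near 0. Btg1 after 1 h at 40 °C against 37 °C was -0.02 with all 4 controls. Zfp36l2 in that comparison was -0.02 with library totals alone and between -0.07 and 0.07 with single libraries left out. Tob1 between 42.5 °C and 40 °C for 1 h was between -0.08 and 0.01 with single libraries left out. Zfp36l1 between 6 h and 1 h at 40 °C was -0.0012 with DESeq2, -0.000057 without a filter, -0.0000046 with at least 10 counts in every library, -0.00041 with library totals alone, and between -0.06 and 0.10 with single libraries left out. Library totals alone moved the median of all genes by at most -0.08 on the log2 scale. Of 189 counts of called list genes under alternatives, 147 stayed within 1.5 times the reported count, where a count that stayed at 0 is scored as unchanged. Tob2 had the fewest reads of the 6 genes, 23 to 71 a library, and the part of depth in its results was not tested.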
